A study of Caenorhabditis elegans with 9 samples.

Results

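The cytochrome P450 genes described here are the genes of Caenorhabditis elegans whose name begins with cyp- and a digit. The name rule took 72 of the 21776 genes in the count table, and no expression value entered the choice. They fall into 15 subfamily numbers (CYP13 to CYP44) and 24 lettered subgroups. All 72 genes had at least 1 read in some library. A filter on low counts kept 57 for testing, and the other 15 had at most 75 reads each over all libraries.

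The samples were intestines dissected from paralysed adult worms of the wild-type strain N2. They had grown for 4 days at 20 °C, starting as L1 larvae, in the liquid medium mCeHR2 with heme at 2, 20 or 400 µM. Each library pooled the intestines of 3 worms and was made by SMART-seq, a full-length cDNA method for small amounts of RNA. There were 3 libraries per dose and 9 in all. The strain, medium, stage and temperature were shared by all groups, so the dose of heme is the labelled difference, and no group was grown without heme. The labels do not tell whether the replicates of a dose are separate cultures. The p-values then reflect the spread among the libraries alone, which may be technical.

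Cytochromes P450 are monooxygenases that hold a heme in their active site and use it to insert an oxygen atom into a substrate. Most sit in the membrane of the endoplasmic reticulum and take electrons from NADPH through a shared reductase, encoded in the worm by emb-8, with cytochrome b5 as a second donor for some reactions. C. elegans cannot make heme and takes it up through the intestine, the tissue that also carries much of the worm's oxidation of foreign compounds and fatty acids. In the usual grouping, subfamilies 14 and 33 to 36 resemble the CYP2 enzymes of vertebrates, 13, 25 and 43 the CYP3 enzymes, and 29, 31, 32, 37 and 42 the CYP4 enzymes, while cyp-44A1 is a mitochondrial form.

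The libraries held between 44385011 and 72960600 reads assigned to genes, of which ribosomal RNA took 2.31% to 42.1%. All 10 intestine markers were present in every library, at a summed level of 20057 to 23112 CPM (counts scaled to a common library total) at 2 µM, 16074 to 19670 at 20 µM and 29445 to 38181 at 400 µM. The protease gene asp-1 made up most of that sum at every dose. The other 9 markers summed to 8148 to 8780 CPM at 2 µM, 2410 to 6990 at 20 µM and 4328 to 5804 at 400 µM. Without asp-1 the sum in CPM was thus highest at 2 µM. In the fit described below, the median log2 fold change of the 10 markers was -0.24 for 2 against 20 µM. It was -0.61 for 400 against 20 µM and 0.66 for 2 against 400 µM. The part of intestinal RNA content in the P450 values was not tested. At 2 µM, replicates 2 and 3 were nearly the same library: the chi-square statistic of their counts was 11.3 per degree of freedom, and 360.7 to 4694 in all other pairs of equal dose. Replicate 1 stood apart from them. Over all tested genes, the correlation of log CPM with replicates 2 and 3 was 0.736 and 0.729, beside 0.968 between those replicates. Of 48 tested P450 genes that reached 1 CPM in replicate 1 or in the mean of replicates 2 and 3, replicate 1 was more than 4-fold above the mean of replicates 2 and 3 for 18 and more than 4-fold below it for 3. The same count was not made over all genes, so it describes that library and is no result about P450 genes. Results that rest on that library are therefore also given without it. Levels below are CPM of the deposited counts, or the authors' FPKM (fragments per kilobase of gene, scaled by library size) where genes of different length are compared. In a bulk library, fewer cells of a type and less RNA per cell cannot be told apart.

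A small set of enzymes made up most of the P450 message. By the authors' FPKM, averaged over all 9 libraries, cyp-35A2 led with 131. It was followed by cyp-33C8 (46.5), cyp-33A1 (43.3), cyp-37A1 (30.2) and cyp-44A1 (20.96), and then by cyp-32B1 (16.5), cyp-37B1 (15.4), cyp-25A2 (13.8), cyp-35C1 (13.6), cyp-34A9 (13.3), cyp-43A1 (12.5) and cyp-33E1 (11.6). The places of cyp-33C8 and cyp-33A1 rested on replicate 1 at 2 µM. Without it their means were 14.7 and 18.9, and cyp-37A1 came second with 32.1. The gene cyp-35A2 belongs to a group of intestinal P450s known to be induced by foreign compounds and linked to fat storage. It was the most abundant P450 in 8 of 9 libraries, and in replicate 3 at 20 µM cyp-37A1 was ahead of it. The 3 leading genes of a library held 55.9% to 65.1% of the family's FPKM at 2 µM, 35.6% to 49.9% at 20 µM and 28.4% to 32.7% at 400 µM. Between 24 and 37 members reached an FPKM of 1 in a library.

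**Figure D1:**
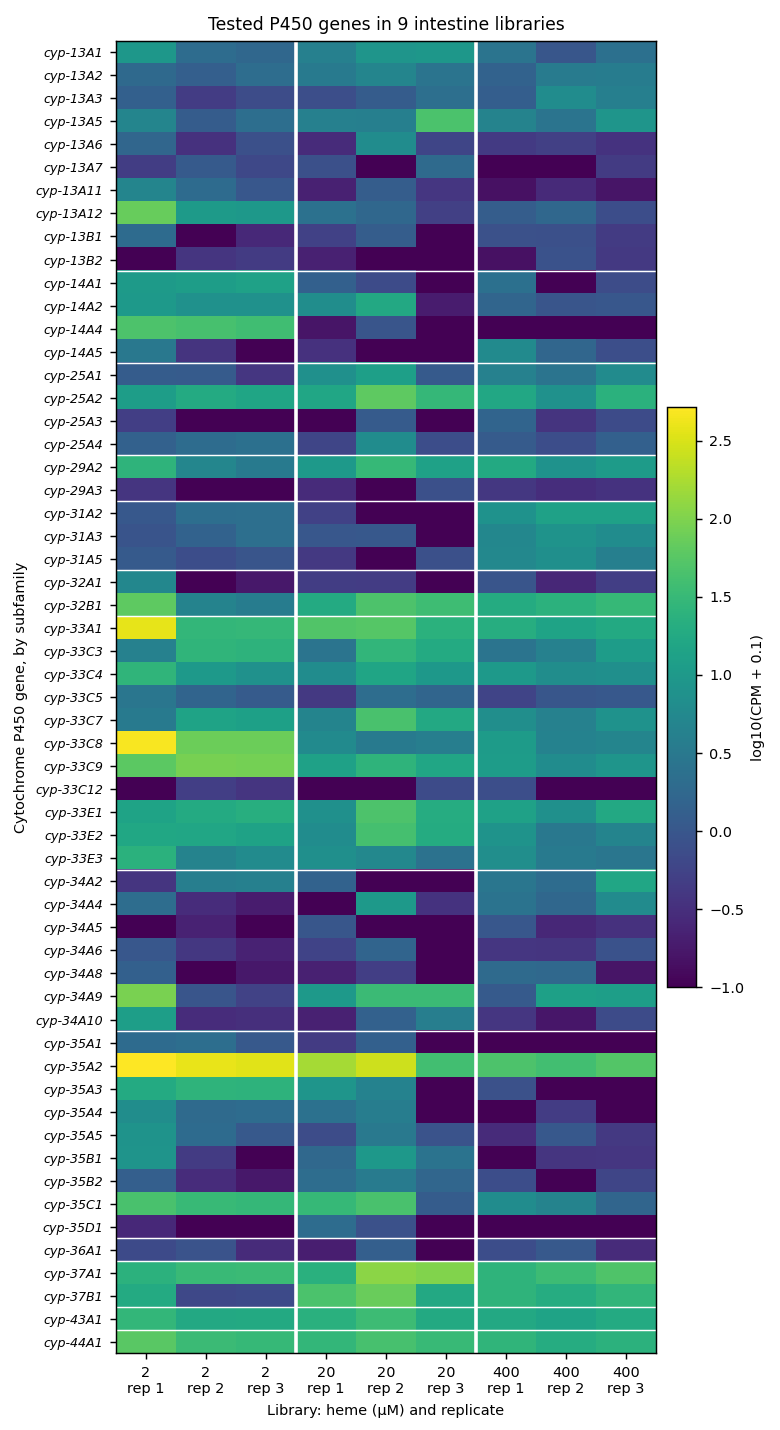
Level of each of the 57 tested P450 genes (rows, grouped by subfamily) in the 9 libraries (columns, by heme dose and replicate), as log10 of CPM plus a pseudocount of 0.1. cyp-35A2 is bright in every column, cyp-14A4 is bright at 2 µM alone, and cyp-33C8 and cyp-33A1 are brightest in replicate 1 at 2 µM.

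Most of the family lies in tandem. By the RefSeq annotation of assembly WBcel235, 40 members are on chromosome V, 12 on II, 7 on X, 6 on III, 6 on IV and 1 on I. With a gap of at most 10 kb between neighbours, 44 members form 12 arrays. Levels within an array were far from even. On chromosome V, cyp-35A1 and cyp-35A2 share an array at positions 7359929 to 7364182, yet the mean FPKM was 0.457 for the first and 131 for the second. The longest array, 10 genes of the CYP35 and CYP34 subfamilies between 3936326 and 3972991 on V, had 1 prominent member, cyp-34A9 (FPKM 13.3), and no other above 1.57. The 8 genes cyp-13A1 to cyp-13A8 on II (9779181 to 9807569) were all low, the highest being cyp-13A5 at an FPKM of 5.08. Neighbours of such similar sequence can share reads. How the authors' counting treated reads that fit more than 1 copy is not given in the sources used here, so values of close copies are uncertain to that extent.

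The summed level of the family was highest at 2 µM heme and lowest at 400 µM. It was 2135, 946 and 888 CPM in the 3 libraries at 2 µM, with 531.6, 1138 and 534.5 at 20 µM and, at 400 µM, 357, 299 and 415. Every library at 400 µM lay below every library of both other doses, while the 2 µM and 20 µM libraries overlapped. The mean of 1323 ± 704 (SD, n = 3) at 2 µM was 3.71-fold the 357 ± 57.8 at 400 µM, and 2.57-fold without replicate 1 at 2 µM. It was 1.80-fold the 735 ± 349 at 20 µM, and 1.25-fold without that replicate. That excess over 20 µM depended on scaling. With TMM scaling, the scaling of the test, the libraries read 1918, 851 and 822 at 2 µM and 888, 961 and 743 at 20 µM. Without ribosomal RNA in the totals they read 2214, 1102 and 1042 at 2 µM and 544, 1763 and 923 at 20 µM. In both, replicates 2 and 3 at 2 µM lay within the 20 µM range. The mean at 400 µM was 0.486 of that at 20 µM. No test was run on these sums.

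The subfamilies did not share 1 order of doses. CYP35, the group around cyp-35A2, summed to 611, 452 and 413 CPM at 2 µM, to 215, 343 and 44.9 at 20 µM, and to 55.8, 44.6 and 54.5 at 400 µM. CYP33, the largest contributor beside it, summed to 1003, 287 and 280 CPM at 2 µM, with 106, 267 and 133 at 20 µM and, at 400 µM, 91.1, 54.3 and 83.2. In CPM, all 3 libraries at 2 µM were above all others for both. That order depended on scaling: with ribosomal RNA, 35.5% of replicate 2 at 20 µM, left out of the totals, this replicate reached 413.6 for CYP33 and 531.5 for CYP35, above replicates 2 and 3 at 2 µM (334 and 328 for CYP33, 527 and 485 for CYP35). CYP14 was at 71.1, 62.6 and 58.2 CPM at 2 µM against 8.05, 19.1 and 0.0901 at 20 µM and 10.4, 2.54 and 2.24 at 400 µM, again without overlap. CYP37, in contrast, was lowest at 2 µM, with 42.7, 33.3 and 34.4 CPM against 68.7, 190.6 and 121.5 at 20 µM and 51.7, 55.2 and 76.8 at 400 µM. CYP31 was highest at 400 µM, with 18.4, 28.3 and 23.6 CPM against 2.81, 4.14 and 5.17 at 2 µM and, at 20 µM, 1.68, 0.973 and 0.721. The makeup of the family differed accordingly. CYP35 and CYP33 together with CYP14 led at 2 µM, where they held 38.4%, 38.1% and 5.02% of the family's FPKM, or 49.9%, 27.2% and 7.01% without replicate 1. At 400 µM their shares were 14.7%, 21.5% and 1.44%, while CYP37 and CYP31 held 16.9% and 7.46% there and 2.79% and 0.35% at 2 µM (3.80% and 0.58% without replicate 1).

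The CYP32 and CYP34 sums depended on 1 library. CYP34 read 110 CPM in replicate 1 at 2 µM and 5.67 and 5.04 in the other two, with 12.8, 47.4 and 38.4 at 20 µM and 9.69, 18.8 and 36.6 at 400 µM. CYP32 read 66.6 CPM in that replicate and 4.51 and 3.57 in the other two, against 19.01 to 48.5 at 20 µM and 20.4 to 31.3 at 400 µM. Without replicate 1, both subfamilies were lowest at 2 µM. CYP29 and CYP13 depended on it too. CYP29 read 26.6 CPM in replicate 1 and 4.96 and 3.24 in the other two, against 7.90 to 31.1 in the libraries at 20 and 400 µM. CYP13 read 97.1 CPM in replicate 1 and 18.5 and 18.6 in the other two, against 15.9 to 63.0 at 20 µM, and the log2 ratio of means of 2 to 20 µM went from 0.32 to -0.95 without it. In CPM, CYP25 was lower at 2 µM (14.3 to 21.6) than at 20 µM (23.5 to 81.6), with 10.96 to 31.9 at 400 µM. Without ribosomal RNA in the totals, its replicate 2 at 2 µM (25.1) passed replicate 1 at 20 µM (24.1). CYP44 was lowest at 400 µM, and CYP43 ranged from 14.4 to 35.7 CPM over all libraries. CYP23, CYP36 and CYP42, each a single gene, stayed at or below 1.24 CPM in every library. Their genes cyp-23A1, cyp-36A1 and cyp-42A1 had mean levels of at most 0.617 CPM at any dose.

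**Figure D2:**
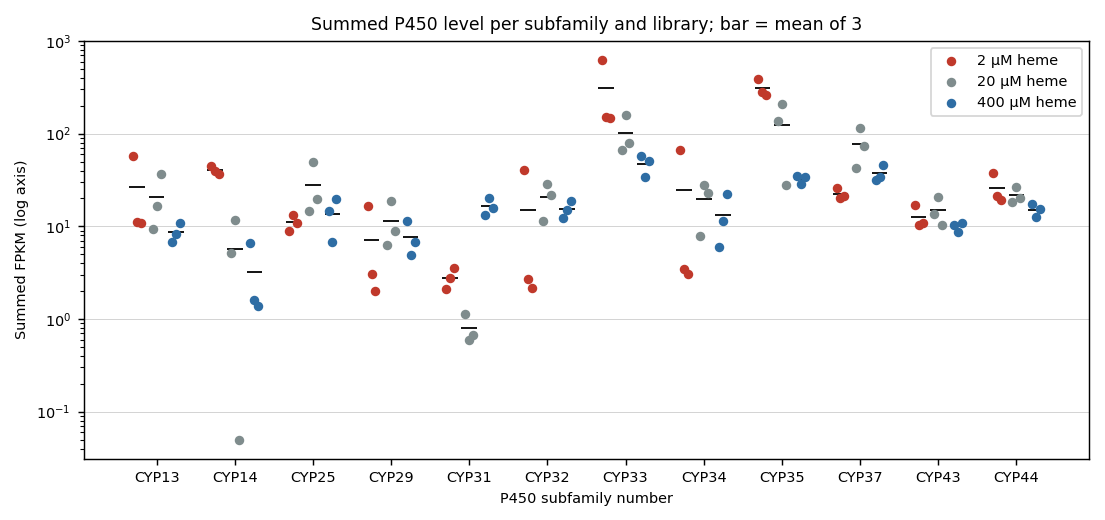
Summed FPKM of each larger P450 subfamily (log axis) in each library, coloured by heme dose, with a bar for the mean of the 3 libraries. The means of CYP35, CYP33 and CYP14 are highest at 2 µM, that of CYP37 is lowest there, and that of CYP31 is highest at 400 µM; CYP32 and CYP34 each have 1 high point at 2 µM.

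Which single genes differed between low and high heme was tested with edgeR's quasi-likelihood test, adjusted by the Benjamini-Hochberg method over all 13434 genes tested. Between 2 and 400 µM, 1 of 57 P450 genes passed an adjusted p of 0.05, cyp-33C9, which was higher at 2 µM; over all genes 0.0819% passed in that direction and 0.104% in either. At an unadjusted p under 0.05 there were 13 P450 genes higher at 2 µM and 2 lower, beside 5.2% and 5.37% of all genes. Between 2 and 20 µM no P450 gene passed (0.0744% of all genes did). At an unadjusted p under 0.05, 4 were higher at 2 µM and 6 lower, beside 8.09% and 5.34% of all genes. Between 400 and 20 µM none passed either (0.551% of all genes did), while 3 were higher and 18 lower at 400 µM at an unadjusted p under 0.05, beside 11.2% and 7.28% of all genes. The number passing depended on the tool. With DESeq2, 7 P450 genes passed in the comparison of 2 with 20 µM (7.4% of all genes), 13 in that of 400 with 20 µM (13.2%) and 6 in that of 2 with 400 µM (4.75%). Of these, cyp-14A4 and cyp-33C9 were higher at 2 than at 20 µM, and cyp-31A2 and cyp-31A5 at 400 than at 20 µM. The rest were lower in these comparisons, and all 6 were higher at 2 than at 400 µM. With limma-voom, 6 passed in the first (1.88% of all genes), 0 in the second (0%) and 28 in the third (27.3%). In the first, cyp-14A4, cyp-33C8 and cyp-33C9 were higher at 2 µM, and cyp-13A1, cyp-32B1 and cyp-37B1 lower. In the third, those lower at 2 µM were cyp-13A3, cyp-14A5, cyp-25A1, cyp-25A3, cyp-29A2, cyp-29A3, cyp-31A2, cyp-31A3, cyp-31A5, cyp-32B1, cyp-34A4, cyp-34A9 and cyp-37B1. The others were higher there. The comparisons share libraries, so they are not independent of each other.

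The middle of the family's fold changes lay below that of all genes at 400 µM. The median log2 fold change of the 57 tested members was -1.10 for 400 against 20 µM, with -0.03 for all genes, and 45 of the 57 were below 0 (50.9% of all genes). For 2 against 400 µM the median was 0.84, with 0.02 for all genes, and 36 were above 0 (50.8% of all genes). That value was 0 without replicate 1 at 2 µM, where the median of all genes was -0.29. For 2 against 20 µM the median was -0.13 beside 0.12 for all genes, and 27 of the 57 were above 0 (54.4% of all genes). Without replicate 1 at 2 µM it was -0.81 beside -0.12, and without replicate 2 at 20 µM it was 0.14 beside 0.15. The dose with the lowest mean CPM was 400 µM for 31 members (24.9% of all genes) and 2 or 20 µM for 13 each (19.5% and 55.5%). The highest mean was at 2 µM for 23 members (36.3% of all genes), at 20 µM for 21 (22.7%) and at 400 µM for 13 (40.9%). With TMM scaling, the scaling of the test, the highest mean was at 2 µM for 19 members (30.3% of all genes), at 20 µM for 27 (35.4%) and at 400 µM for 11 (34.2%), and 400 µM was lowest for 35 (35.9%). The filter on low counts keeps a gene that is high in 1 group, so these medians describe the tested members and not all 72.

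Counts of genes whose 3 libraries at one dose all lay above the 3 at the other gave a similar picture, with some dependence on scaling. In CPM, 19 members were wholly higher at 2 than at 400 µM and 6 wholly lower, beside 12.3% and 15% of all genes. After TMM scaling these were 18 and 6 (14.4% and 14.1%). For 400 against 20 µM, 5 members were wholly higher and 6 wholly lower in CPM (24.8% and 1.22% of all genes), and 4 and 19 after TMM scaling (16.7% and 7.44%). For 2 against 20 µM they were 8 and 2 in CPM (20.4% and 1.65%), and 8 and 6 after scaling (12.7% and 4.46%).

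**Figure D3:**
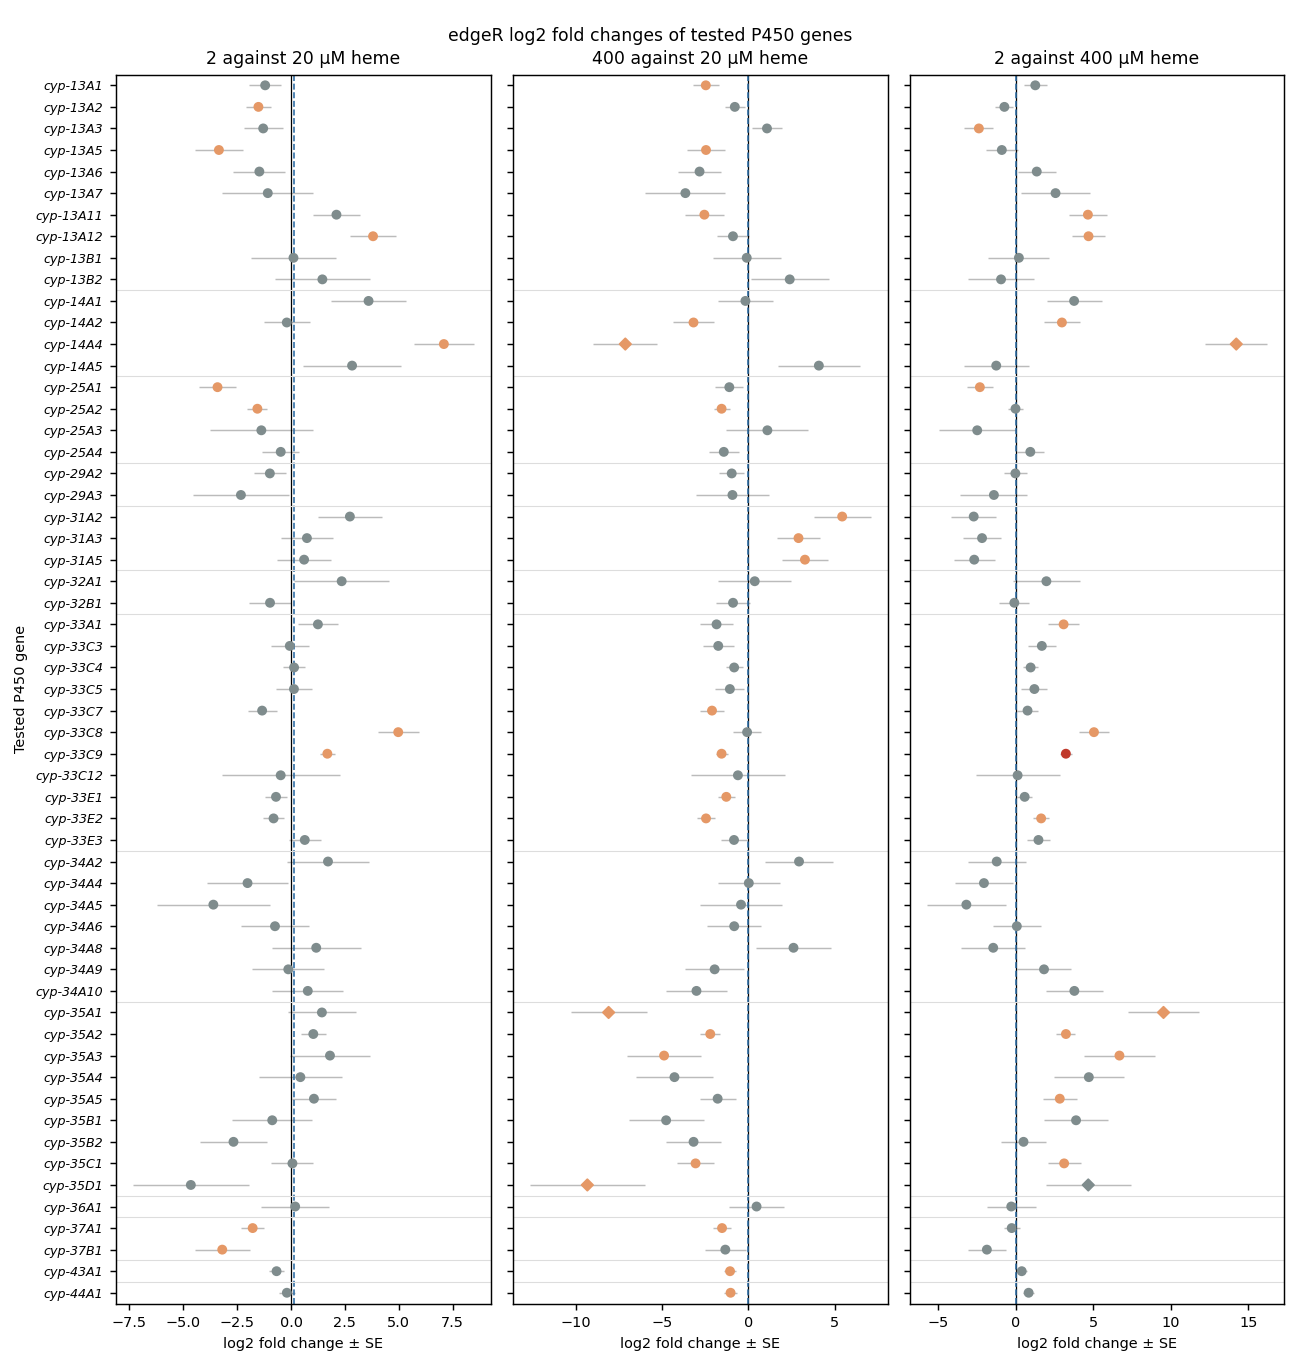
Fitted log2 fold change with its standard error for each of the 57 tested P450 genes in the 3 dose comparisons; red marks an adjusted p under 0.05, orange an unadjusted p under 0.05, grey the rest, diamonds genes at 0 counts in 1 group, and the dashed blue line the median of all genes. In the comparison of 400 with 20 µM most points lie left of 0, with a median of -1.10, and cyp-33C9 is the only red point, in the comparison of 2 with 400 µM.

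Among the CYP33 genes, cyp-33C9 had the steadiest difference. Its level was 60.4, 88.7 and 86.4 CPM at 2 µM, with 13.5, 26.2 and 15.8 at 20 µM and, at 400 µM, 11.3, 6.30 and 8.52. The 3 doses did not overlap in any pair. Its log2 fold change was 3.24 (SE 0.37, edgeR adjusted p = 0.0294) for 2 against 400 µM, 1.68 (SE 0.35, adjusted p = 0.109) for 2 against 20 µM, and -1.55 (SE 0.34, adjusted p = 0.0776) for 400 against 20 µM. The call did not hold when most single libraries were left out, where at most 0.0352% of all genes passed for 2 against 400 µM. With the near-identical replicates 2 and 3 at 2 µM summed into 1 library, the log2 fold change was 3.18 with an edgeR adjusted p of 0.154. In that setting 0% of all genes passed. Leaving out 1 library in turn kept the log2 fold change between 3.07 and 3.36, with an adjusted p between 0.0516 and 0.258 for every 2 or 400 µM library and for replicate 2 at 20 µM. The gene lies on chromosome V (3091812 to 3094561, WBcel235). Its count and FPKM imply a length of 3.97 kb, more than the 2.75 kb that it spans in RefSeq, the only such case among 49 members that could be compared. The region that was counted for it is not given in the sources used here.

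The other abundant CYP33 genes varied more within a dose. The level of cyp-33C8 was 476, 76.9 and 76.2 CPM at 2 µM, with 5.93, 3.36 and 3.83 at 20 µM and, at 400 µM, 10.9, 4.33 and 4.78. Every 2 µM library lay above every other. The log2 fold change was 4.97 (SE 0.95, edgeR adjusted p = 0.1005) against 20 µM and 5.05 (SE 0.95, adjusted p = 0.113) against 400 µM. Without replicate 1 at 2 µM these values were 3.55 and 3.57. The level of cyp-33A1 was 375, 29.1 and 29.4 CPM at 2 µM, with 51.7, 54.3 and 23.3 at 20 µM and, at 400 µM, 20.3, 14.2 and 17.9, so that only replicate 1 at 2 µM stood above the 20 µM range. The gene cyp-33E2 is known to act in the pharynx in the synthesis of eicosanoids from polyunsaturated fatty acids. It was at 16.2, 15.8 and 13.5 CPM at 2 µM, with 6.33, 41.3 and 19.3 at 20 µM and, at 400 µM, 7.90, 2.94 and 4.60, a log2 fold change of -2.45 (SE 0.52, edgeR adjusted p = 0.0698) for 400 against 20 µM. Its sister cyp-33E1 was at 14.2 to 21.4 CPM at 2 µM, 7.25 to 47.1 at 20 µM and 7.34 to 17.6 at 400 µM. The 13 pharynx markers had their highest mean sum at 20 µM. They summed to 1.92 to 13.6 CPM at 2 µM, to 478, 766 and 61.2 at 20 µM, and to 12.3 to 211 at 400 µM. At 20 µM the order of libraries differed: replicate 1 held 478 CPM of the markers and 6.33 CPM of cyp-33E2. At 2 µM, 7 of the markers (marg-1, phat-1 to phat-5 and ceh-22) were at 0 in all libraries. Their part in the cyp-33E2 values was not tested.

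In the CYP35 group, cyp-35A2 was at 521, 389 and 355 CPM at 2 µM, with 166, 272 and 38.8 at 20 µM and, at 400 µM, 47.9, 38.5 and 51.9. In CPM every 2 µM library was above every library of the other doses. Without ribosomal RNA in the totals, replicate 2 at 20 µM (421) passed replicate 3 at 2 µM (417). Its log2 fold change was 3.24 (SE 0.62, edgeR adjusted p = 0.114) for 2 against 400 µM and -2.21 (SE 0.59, adjusted p = 0.125) for 400 against 20 µM. The level of cyp-35C1, also known to respond to foreign compounds, was 45.2, 31.4 and 29.3 CPM at 2 µM, with 31.3, 45.03 and 1.13 at 20 µM and, at 400 µM, 6.32, 4.55 and 1.51. The weaker CYP35A copies had the same order of means, while cyp-35B1 (2.89, 4.54 and 0.188 CPM at 2, 20 and 400 µM), cyp-35B2 (0.495, 2.36 and 0.384) and cyp-35D1 (0.0548, 0.904 and 0) had their highest mean at 20 µM. The level of cyp-35A3 was 18.8, 25.9 and 24.998 CPM at 2 µM, with 8.62, 4.39 and 0 at 20 µM and, at 400 µM, 0.744, 0 and 0. The level of cyp-35A1 was 1.86, 2.11 and 1.001 CPM at 2 µM, and no read was counted at 400 µM. Against a floor of 3 counts over the 400 µM group, cyp-35A1 was at least 102-fold higher at 2 µM, or 66.4-fold without replicate 3 at 400 µM. With all 9 libraries, its edgeR adjusted p for that comparison was 0.273. No CYP35 gene passed with edgeR. DESeq2 called cyp-35A1 and cyp-35A2 in both comparisons of 400 µM, cyp-35C1 against 20 µM and cyp-35A3 against 2 µM, and limma-voom called cyp-35A1 to cyp-35A4 and cyp-35C1 for 2 against 400 µM.

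The CYP14 difference came mainly from cyp-14A4. It read 47.7, 43.2 and 37.3 CPM at 2 µM, 0.061, 0.84 and 0 at 20 µM, and 0 in all 3 libraries at 400 µM. Against the floor of 3 counts over the group, cyp-14A4 was at least 2621-fold higher at 2 than at 400 µM, and at least 1713-fold without replicate 3 at 400 µM. Its edgeR adjusted p was 0.0735 for that comparison and 0.119 for 2 against 20 µM, where the log2 fold change was 7.09 (SE 1.39). DESeq2 and limma-voom placed both of these below 0.05, with adjusted p of 6.2e-13 and 8.03e-05 against 400 µM. Its neighbour cyp-14A1, in the same array on chromosome X (13265041 to 13284197), read 10.7, 11.6 and 13.1 CPM at 2 µM, with 1.28, 0.611 and 0 at 20 µM and, at 400 µM, 2.27, 0 and 0.643. The next, cyp-14A2, read 9.73, 7.52 and 7.57 CPM at 2 µM but spread from 0.0901 to 17.6 at 20 µM, and read 1.505, 0.841 and 0.925 at 400 µM.

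**Figure D4:**
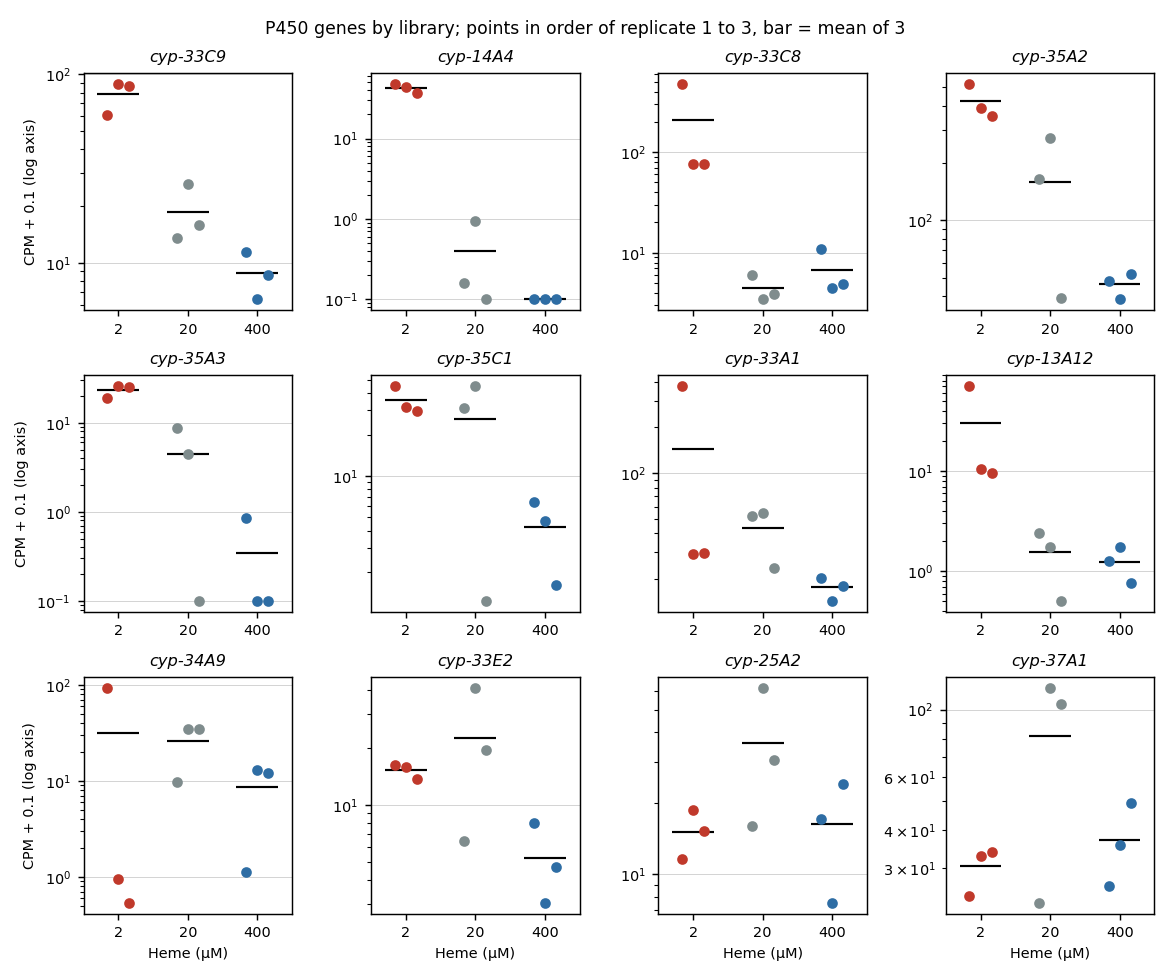
CPM plus 0.1 (log axis) of 12 P450 genes in each library, by heme dose, with points in the order of replicates 1 to 3 and a bar for the mean. cyp-33C9, cyp-14A4, cyp-33C8 and cyp-35A2 have all 2 µM points above all others; cyp-33A1, cyp-13A12 and cyp-34A9 have 1 high point at 2 µM, replicate 1.

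Genes of the CYP3-like and CYP34 groups had their highest value in replicate 1 at 2 µM in several cases. The gene cyp-13A12 is known from the worm's response to oxygen, where it acts downstream of HIF-1 through oxidised fatty acids. It read 70.9, 10.3 and 9.43 CPM at 2 µM, with 2.33, 1.64 and 0.406 at 20 µM and, at 400 µM, 1.16, 1.63 and 0.659. All 2 µM libraries were above all others, with a log2 fold change of 3.80 (SE 1.05, edgeR adjusted p = 0.182) against 20 µM and 4.70 (SE 1.09, adjusted p = 0.191) against 400 µM. Without replicate 1 they were 2.23 and 3.08. Its array neighbour cyp-13A11 read 4.88, 1.87 and 0.91 CPM at 2 µM and at most 1.16 elsewhere. The gene cyp-34A9, known as one of the genes downstream of the transcription factor DAF-16, read 93.5, 0.853 and 0.437 CPM at 2 µM, with 9.66, 34.4 and 34.4 at 20 µM and, at 400 µM, 1.01, 12.9 and 11.8. There replicates 2 and 3 at 2 µM were the lowest of all libraries. Replicate 1 at 2 µM also had the highest marker sums of outer tissues. The 8 hypodermis and cuticle markers summed to 2450 CPM there, against 38.5 and 36.0 in the other 2 µM libraries, 36.7 to 113.3 at 20 µM and 152 to 744 at 400 µM, and the 6 muscle markers to 841 against 42.1 and 47.0, 89.9 to 124 and 143 to 676. None of the muscle markers was at 0 in any library, and all 8 hypodermis markers had reads in replicate 1. The hypodermis list was not uniform. At 400 µM col-19 made up nearly all of the sum (743, 231 and 152 CPM), and rol-6 and lon-3 were at 0 in all libraries. In replicate 1 at 2 µM, col-19 read 898, sqt-3 553 and col-10 489 CPM. The part of these tissues in the P450 values of that library was not tested.

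Some P450 genes had a lower mean at 2 than at 20 µM. The CYP4-like gene cyp-37A1 read 24.1, 32.8 and 33.8 CPM at 2 µM, with 22.9, 118 and 104.4 at 20 µM and, at 400 µM, 25.98, 35.5 and 49.2. In CPM, replicate 1 at 20 µM overlapped the other doses, and the log2 fold change of 2 against 20 µM was -1.78 (SE 0.54, edgeR adjusted p = 0.220). The gene cyp-37B1 read 18.5, 0.531 and 0.583 CPM at 2 µM, with 45.8, 72.4 and 17.1 at 20 µM and, at 400 µM, 25.8, 19.7 and 27.6. With edgeR it did not pass for 2 against 20 µM (adjusted p = 0.342), and it passed when replicate 1 at 2 µM was left out. In the CYP25 array on chromosome III, cyp-25A1 read 1.11, 1.06 and 0.291 CPM at 2 µM, with 7.12, 12.3 and 1.04 at 20 µM and, at 400 µM, 4.13, 2.59 and 6.05. Its log2 fold change was -3.41 (SE 0.87, edgeR adjusted p = 0.155) for 2 against 20 µM. The more abundant cyp-25A2 read 11.5, 18.5 and 15.1 CPM at 2 µM, with 15.9, 61.9 and 30.3 at 20 µM and, at 400 µM, 17.0, 7.44 and 23.9, with edgeR adjusted p of 0.218 and 0.153 against 20 µM. After TMM scaling, cyp-37A1, cyp-37B1, cyp-25A1 and cyp-25A2 were each wholly lower at 2 than at 20 µM. With DESeq2, cyp-37A1, cyp-25A1 and cyp-25A2 passed for 2 against 20 µM (adjusted p of 0.0158, 0.00134 and 0.0176). DESeq2 also called cyp-25A2 for 400 against 20 µM (0.0245). With limma-voom, cyp-37B1 passed as lower at 2 than at 20 and 400 µM (0.00213 and 7.75e-05), and cyp-25A1 than at 400 µM (0.00809). For cyp-37A1 and cyp-37B1, a protein-coding gene on the opposite strand overlaps in RefSeq, and whether the counting used strand is not given in the sources used here.

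Among the other genes with high levels, the mitochondrial cyp-44A1 read 59.02, 33.8 and 30.4 CPM at 2 µM, with 28.5, 42.5 and 31.7 at 20 µM and, at 400 µM, 27.2, 19.8 and 24.2. All 400 µM libraries were below all others, with a log2 fold change of -1.03 (SE 0.37, edgeR adjusted p = 0.204) for 400 against 20 µM. In RefSeq it overlaps npp-24 on the same strand. The level of cyp-43A1 was 17.3 to 28.9 CPM at 2 µM, 17.7 to 35.7 at 20 µM and 14.4 to 18.7 at 400 µM. The CYP4-like genes cyp-32B1 and cyp-29A2 ranged from 3.50 to 61.5 and from 3.24 to 31.1 CPM over all libraries. At 2 µM replicate 1 was the highest for both, at 61.5 and 26 CPM. The other replicates there (4.51 and 3.50 for cyp-32B1, 4.96 and 3.24 for cyp-29A2) lay below every library at 20 and 400 µM. With limma-voom, cyp-32B1 passed as lower at 2 µM in both comparisons, and cyp-29A2 against 400 µM.

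The CYP31A genes were highest at 400 µM. In the worm, cyp-31A2 and cyp-31A3 act with the reductase emb-8 to make lipids needed for the permeability barrier of the eggshell. The level of cyp-31A2 was 0.959, 2.09 and 2.15 CPM at 2 µM, with 0.427, 0 and 0 at 20 µM and, at 400 µM, 7.87, 13.1 and 13.2. The level of cyp-31A3 was 0.809 to 2.17 CPM at 2 µM, 0 to 0.973 at 20 µM and 5.24 to 8.07 at 400 µM, and that of cyp-31A5 was 0.66 to 1.04, 0 to 0.721 and 3.94 to 7.09. For all 3 genes, every 400 µM library lay above every other. The log2 fold changes against 20 µM were 5.43 (SE 1.65), 2.90 (SE 1.27) and 3.28 (SE 1.35), with edgeR adjusted p of 0.154, 0.267 and 0.245. With DESeq2, cyp-31A2 and cyp-31A5 passed in that comparison (adjusted p of 0.00282 and 0.0474). These genes are close copies that can share reads, and cyp-31A5 overlaps a gene on the opposite strand. The sums of germline and of sperm markers also had their highest mean at 400 µM, but the order of libraries within that dose differed. In replicates 1 to 3 at 400 µM, CYP31 summed to 18.4, 28.3 and 23.6 CPM. The germline and oocyte markers summed to 1545, 2872 and 928 CPM there, and the sperm markers to 9069, 852 and 5028. The 11 germline and oocyte markers summed to 114 to 196 CPM at 2 µM, 37.8 to 105 at 20 µM and 928 to 2872 at 400 µM, with oma-1 at 0 in replicate 3 at 20 µM. The 20 sperm markers, none of them at 0 in any library, summed to 833 to 853 CPM at 2 µM, 45.5 to 144 at 20 µM and 852 to 9069 at 400 µM, and 9 of them passed the test as higher at 400 than at 20 µM. The part of germline RNA in the CYP31A values was not tested.

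Among the genes that pass electrons to P450 enzymes, emb-8 had the clearest order. It encodes the NADPH-P450 reductase that serves the microsomal members. Its level was 219, 316 and 307 CPM at 2 µM, with 61.6, 117 and 61.3 at 20 µM and, at 400 µM, 66.4, 70.2 and 79.3. All 2 µM libraries lay above all others. The log2 fold change was 1.42 (SE 0.36, edgeR adjusted p = 0.152) against 20 µM and 2.00 (SE 0.37, adjusted p = 0.109) against 400 µM. The cytochrome b5 genes cytb-5.1 and cytb-5.2 overlapped between doses, at 36.4 to 95.2 and 59.5 to 187 CPM over all libraries. The gene vem-1, a membrane-bound heme-binding protein, ranged from 5.36 to 48.2 CPM. The P450 gene daf-9, which makes steroid hormones and which the name rule does not take, had at most 0.475 CPM in a library and was not tested. Of the 9 genes of this list 7 were tested, and none passed with edgeR; emb-8 passed with DESeq2 and limma-voom in both comparisons of 2 µM, and Y73F8A.27 with limma-voom against 400 µM. At an unadjusted p under 0.05 with edgeR, 1 was higher at 2 than at 20 µM and 2 were higher at 2 than at 400 µM. Of 15 other heme-carrying enzymes and cytochromes, 14 were tested and 1 passed with edgeR, a cytochrome c gene. This gene, cyc-2.2, read 98.1, 16.1 and 55.4 CPM at 400 µM against 0.183, 1.03 and 1.64 at 20 µM, a log2 fold change of 5.35 (SE 0.89, edgeR adjusted p = 0.0414). The sperm markers of the same 400 µM libraries summed to 9069, 852 and 5028 CPM, and their part in the cyc-2.2 values was not tested. Other tools called more of this list. The catalase genes ctl-2 and ctl-3 were lower at 2 than at 20 µM with DESeq2, and ctl-2 was also lower at 2 than at 400 µM with both tools. The peroxidase gene skpo-1 was higher at 400 than at 20 µM with DESeq2 and higher at 400 than at 2 µM with both tools, and cyc-1 was higher at 2 than at 400 µM with limma-voom. All 5 flavin monooxygenases, which oxidise foreign compounds without heme, and 15 of 16 regulators of detoxification and intestinal genes were tested, and none passed with edgeR or DESeq2. With limma-voom, elt-2 and nhr-176 were higher at 2 than at 400 µM, and fmo-4 was lower, with an edgeR log2 fold change of 0.57 in the other direction. At an unadjusted p under 0.05 with edgeR there was 1 gene among them, elt-2, lower at 400 than at 20 µM.

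**Figure D5:**
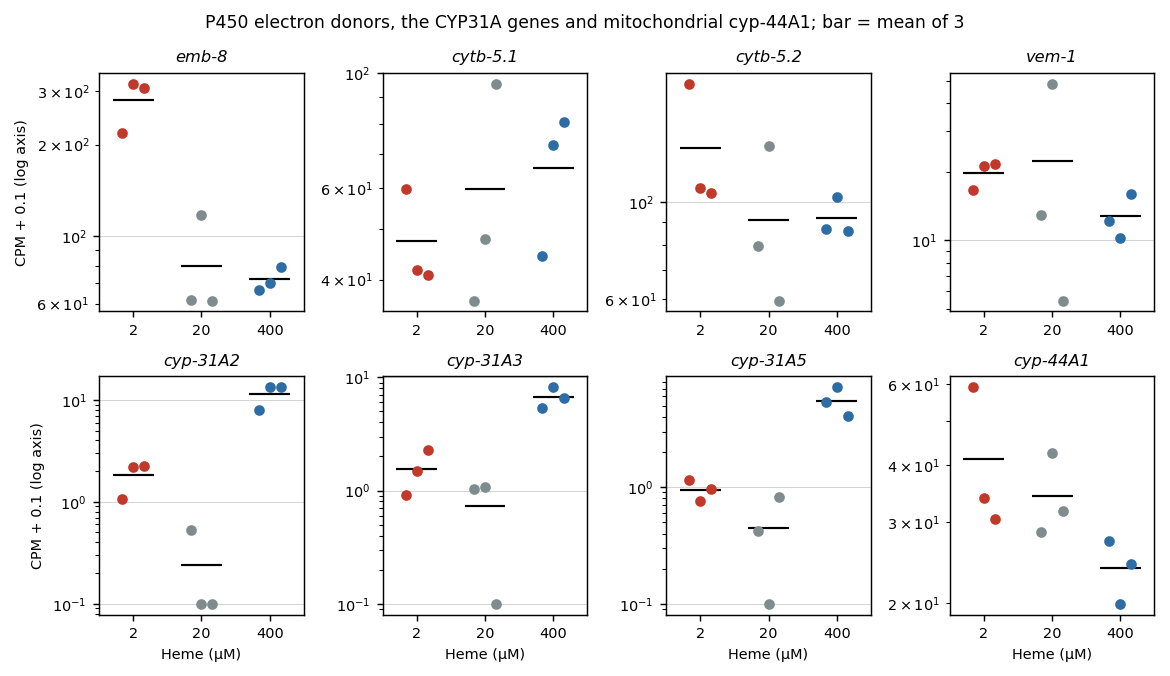
CPM plus 0.1 (log axis) of 4 electron-transfer genes (top row) and of 3 CYP31A genes and cyp-44A1 (bottom row) in each library, by heme dose, with a bar for the mean of 3. The emb-8 points at 2 µM (219 to 316 CPM) lie above all others, and the CYP31A points are highest at 400 µM.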

How the data were processed

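The libraries were prepared by SMART-seq and sequenced on an Illumina instrument, per the labels. Bowtie 0.12.2 and assembly WBcel235 are named in the submitters' processing notes. Raw counts for each gene, and FPKM values computed by the authors, make up the deposited table, per the file headers. Strand use, the gene models and the treatment of reads that fit several copies are not given in the sources used here. Counts were tested with edgeR 4.0.16 (R 4.3.3): TMM scaling, filterByExpr, 1 coefficient per dose over all 9 libraries, quasi-likelihood F test and Benjamini-Hochberg adjustment over 13434 genes. The biological coefficient of variation was 0.961. CPM uses total counts, so fold changes, which include TMM scaling, differ from ratios of printed means. FPKM entered no test. Fold bounds for a group at 0 use a floor of 3 counts over the group and cover counting error only. The script was tested on simulated data. Alternatives were DESeq2 1.42.0, limma-voom (limma 3.58.1), other scaling, filters and sample sets, removal of 18 ribosomal RNA genes, the replicate number as a block, and leaving out each library.

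Positions and names come from RefSeq WBcel235, which matched all 72 members by gene ID and 71 by symbol. cyp-34A4 has another symbol there. Genes given in full are the 12 with the highest mean FPKM, the 6 with the smallest p in each comparison, those called, and the leading gene of each subfamily number. The copies cyp-14A1, cyp-14A2, cyp-31A3, cyp-31A5 and cyp-35A3 were added after their values were seen, as were the marker sum without asp-1 and the FPKM means and shares without replicate 1 at 2 µM. The members and lists were chosen with earlier results of these data known.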

Additional observations from a re-analysis of the deposited data

How the results depend on the processing

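The count of P450 genes called moved with the tool and with single libraries. For 2 against 20 µM (0 with edgeR) DESeq2 gave 7 and limma-voom 6, and leaving out 1 library gave 0 to 1 (1 without replicate 1 at 2 µM, cyp-37B1, or at 20 µM, cyp-31A2, where 0.0213% and 1.46% of all genes were called). For 400 against 20 µM (0) DESeq2 gave 13, and leaving out 1 library gave 0 to 5 (5 without replicate 1 at 20 µM, with 6.63% of all genes). For 2 against 400 µM (1) DESeq2 gave 6, limma-voom 28 and no filter 2 (0.133% of all genes). A filter of 10 CPM in 3 libraries gave 2 (1.21%), only the groups compared 7 (2.24%), and the near-identical 2 µM libraries summed 0 (0%). Leaving out 1 library gave 0 to 4 (4 without replicate 3 at 20 µM, with 0.366% of all genes), and the median log2 fold change then ran from 0 (without replicate 1 at 2 µM) to 0.92. The log2 ratio of subfamily sums without replicate 1 at 2 µM was -3.11 (2 against 20 µM) and -2.65 (2 against 400 µM) for CYP32, up to 0.034 and 0.49 without another library, and -2.62 and -2.02 for CYP34, up to 0.82 and 1.4998. The cause was not tested.

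Replicate numbers did not pair the samples throughout: the correlation of deviations from the dose means was 0.16 to 0.21 for number 1, -0.12 to 0.02 for number 2 and 0.19 to 0.25 for number 3. With the replicate block, 0 P450 genes were called for 2 against 400 µM (0.0298% of all genes were), and cyp-33C9 had an edgeR adjusted p of 0.0689. The alternatives were followed for 18 gene results, the 6 with the smallest p in each comparison, which were thus picked from these data. Of their 317 alternative values, 0 changed sign, 29 passed the threshold where the reported value had not, and 9 lost it, all of them cyp-33C9. Outside these 18, cyp-34A9 changed sign for 2 against 400 µM. Its log2 fold change was 1.83 with edgeR and -3.35 with limma-voom (adjusted p = 0.0273).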
